A study of Mus musculus with 32 samples.

Results

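The genes that place, start and copy replication forks were followed in single late 2-cell mouse embryos. The set holds 37 genes, of 34223 in the table, taken by symbol from the origin recognition complex, the loading factors, Cdc45 and GINS, DNA polymerases alpha, delta and epsilon, the sliding clamp with its loader and 2 partners, and the single-strand binding protein RPA. The Mcm helicase genes are not among them. In Val_LNA embryos (n = 16) the injected oligonucleotide contained locked nucleic acid (LNA) and targeted tRFValCAC in antisense, a small RNA cut from a valine tRNA. In Ctrl_LNA embryos (n = 16) it was a scrambled LNA oligonucleotide. All 32 embryos were wild type, all were also injected with mRNA for histone H3.3 joined to green fluorescent protein, and all were collected 28 h after in vitro fertilization. Each library is 1 embryo. The labels name no mating or injection day for an embryo, so the tests rest on the spread among embryos that may share either, and no label says how much of the fragment was blocked.

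Replication is prepared before S phase, when the origin recognition complex (ORC) marks origins and Cdc6 and Cdt1 load the Mcm helicase there, a step that geminin blocks by holding Cdt1. In S phase Cdc45 and the GINS complex join the loaded helicase and make it active. Polymerase alpha with primase then lays down RNA-DNA primers, polymerase epsilon extends the leading strand, polymerase delta extends the lagging strand, and replication factor C loads the ring-shaped clamp PCNA that holds the polymerases on DNA. The early mouse embryo goes through its first divisions with stored proteins and RNA of the egg while its own genome is switched on. RNA levels in one embryo are therefore a mix of stored and new transcripts, and RNA level says nothing here about protein.

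The recovered totals were 2592925 to 6259870 reads in Val_LNA embryos and 3759692 to 6128941 in Ctrl_LNA embryos. A value above 0 was found for 16687 to 20200 genes in 31 embryos, but for 7276 genes in Ctrl_LNA 48, at 5122089 reads. In that embryo 15 of the 37 replication genes were at 0, against 0 to 3 in any other embryo. Of the 37, 16 lay below and 9 above all other embryos there, the higher ones including Orc2, Orc6, Cdc6, Gmnn, Gins1 and Rpa2. Control values are therefore given for the other 15 embryos, with the value in Ctrl_LNA 48 beside them, and tests with and without it. All 8 markers of genome activation at the 2-cell stage were measured, and their summed normalised count was 3938 to 26136 (median 7443) in Val_LNA and 2148 to 26086 (median 5054) in the 15 controls. The 8 egg transcripts summed to 5693 to 31741 (median 13329) in Val_LNA and 5167 to 21382 (median 9588) in the 15 controls. Cumulus, sperm and blastocyst markers summed to medians of 29.9, 8.51 and 60.4 in Val_LNA and 15.1, 7.13 and 30.1 in these controls, with none of their genes at 0 in every embryo.

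The RefSeq promoter windows (250 bases before to 50 bases after a transcript start, build GRCm38.p6) cover 30 of the 37 genes. They are shown because replication genes are the classic targets of E2F, a family of transcription factors that acts at the entry to S phase. The searched element was TTTCCCGC, TTTCGCGC, TTTGCCGC or TTTGGCGC, on either strand. A match was present for 12 of the 30 genes, for 4.53% of the 9490 symbols in the table of windows that also passed the filter on low values, and for 2.61% of all 27025 symbols. The first 3 lines below are whole windows of genes that the later results turn on, and the others are 30-base stretches around a match, with capitals for the match.
Cdc45, chr16:18811923-18812222, minus strand: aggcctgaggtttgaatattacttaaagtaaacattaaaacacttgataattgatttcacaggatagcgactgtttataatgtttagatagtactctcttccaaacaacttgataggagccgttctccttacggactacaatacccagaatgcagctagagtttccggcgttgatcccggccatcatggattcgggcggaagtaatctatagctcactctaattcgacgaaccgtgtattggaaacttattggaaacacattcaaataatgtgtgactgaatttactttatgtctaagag
Orc5, chr5:22550289-22550588, minus strand: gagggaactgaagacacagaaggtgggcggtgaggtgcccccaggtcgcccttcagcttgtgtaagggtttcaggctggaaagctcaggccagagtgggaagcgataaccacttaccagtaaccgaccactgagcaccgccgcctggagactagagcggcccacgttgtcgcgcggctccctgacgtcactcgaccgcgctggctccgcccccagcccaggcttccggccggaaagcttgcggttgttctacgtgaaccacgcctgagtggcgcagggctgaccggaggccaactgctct
Pold3, chr7:100121453-100121752, minus strand: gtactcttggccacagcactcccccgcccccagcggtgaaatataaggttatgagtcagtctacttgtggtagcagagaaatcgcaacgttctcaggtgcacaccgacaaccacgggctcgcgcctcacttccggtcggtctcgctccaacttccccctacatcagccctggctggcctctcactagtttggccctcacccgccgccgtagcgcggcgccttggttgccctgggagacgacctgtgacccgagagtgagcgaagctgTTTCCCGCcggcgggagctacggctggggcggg
Orc1, inside chr4:108579204-108579503, plus strand: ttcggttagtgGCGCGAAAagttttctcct
Cdc6, inside chr11:98907901-98908200, plus strand: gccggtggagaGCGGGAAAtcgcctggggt
Cdt1, inside chr8:122567765-122568064, plus strand: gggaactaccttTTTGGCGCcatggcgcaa
Gins3, inside chr8:95633309-95633608, plus strand: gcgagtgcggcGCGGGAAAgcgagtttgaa
Pola1, inside chrX:93632106-93632405, minus strand: gtcatcacaggGCGCCAAAtgcactcccgc
Pole2, inside chr12:69228141-69228440, minus strand: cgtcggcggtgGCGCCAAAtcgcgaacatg
Rfc3, inside chr5:151651159-151651458, minus strand: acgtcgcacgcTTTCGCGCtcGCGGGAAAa
Pold3 holds a match that starts 18 bases after the transcript start, and Rfc3 holds 2 matches around its start, at -10 and at 1. The windows of Cdc45 and Orc5 hold none of these letters. The other genes with a match are Orc3, Pole4, Pold1 and Lig1. Prim2, Pole, Gins1, Gins2, Gins4, Gmnn and Rfc2 have no window in the table. A match is a run of letters and not a measured site.

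Per exon kilobase the 37 genes spanned from 931 to 3.59 mean normalised counts over the 31 embryos other than Ctrl_LNA 48. Gmnn, the gene of geminin, was highest, at 942 ± 276 in Val_LNA and 919 ± 382 in the 15 controls (SD, n = 16 and 15). Pole4, a small histone-fold subunit of polymerase epsilon, followed at 564 ± 154 in Val_LNA and 521 ± 136 in controls. Cdc45 came after these over all 31 embryos, with 194 ± 146 per kilobase in Val_LNA and 471 ± 133 in controls. Gins4 (316), Rpa2 (296), Orc6 (281) and Pold3 (271) came next over the 31 embryos, and these neighbours lay within each other's spread. On the same scale the catalytic subunit genes stood at 73.7 (Prim1), 47.9 (Pola1), 12.2 (Pole) and 5.39 (Pold1), while Prim2, the gene of the large primase subunit, stood at 13.9 and Pola2 at 12.8. Pold4, the smallest subunit of polymerase delta, was lowest and was the 1 member of 37 that did not pass the filter (a normalised count of at least 10 in at least 8 embryos). It averaged 4.06 ± 5.90 normalised counts in Val_LNA and 4.30 ± 7.71 in the 15 controls, and was detected in 8 of 16 and 6 of 16 embryos of the full groups. These are levels of RNA in whole embryos, scaled to each library, and they give neither RNA per cell nor differences between the cells of an embryo.

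**Figure D1:**
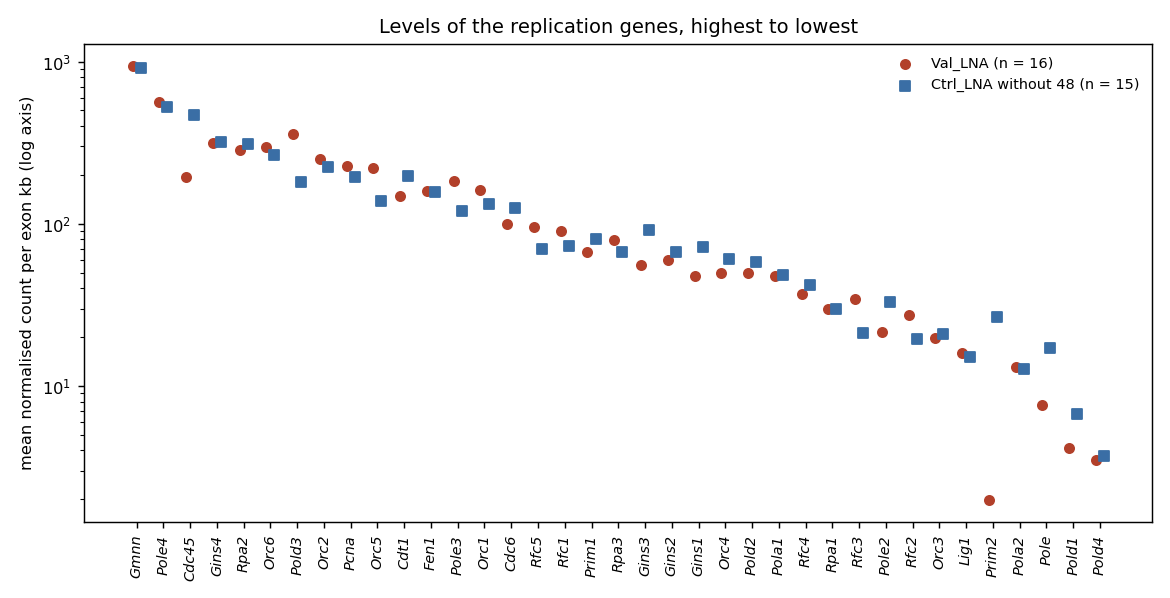
Mean normalised count per exon kilobase (log axis) of the 37 replication genes, ordered by the mean over 31 embryos, for Val_LNA (circles, n = 16) and Ctrl_LNA without embryo 48 (squares, n = 15). Gmnn is highest, Prim2 (1.97 in Val_LNA and 26.6 in Ctrl_LNA) and Cdc45 show the widest separation of circle and square, and most other pairs lie close together.

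A primase subunit gene, Prim2, was much lower in Val_LNA embryos, and no difference passed the test for most replication genes. Of the 36 tested genes, limma with all 32 embryos called 1 lower in Val_LNA (Prim2) and 0 higher at a Benjamini-Hochberg adjusted p under 0.05, against 1.31% lower and 0.881% higher among all 15559 tested genes. Without Ctrl_LNA 48 it called 3 lower (Prim2, Cdc45 and Pole) and 0 higher, against 2.63% and 1.57%. At an unadjusted p under 0.05 in limma with all embryos, 3 members were lower (Prim2, Gins1 and Cdc6) and 4 higher (Orc5, Pold3, Pole3 and Rfc3), against 5.85% lower and 8.88% higher among all tested genes. The median log2 fold change was 0.08 over the 36 members and 0.26 over all tested genes with 32 embryos, and -0.002 and 0.07 without Ctrl_LNA 48. After median centring of every embryo these medians were -0.36 and -0.19, and after centring without Ctrl_LNA 48 they were -0.07 and -0.0004. Directions of small differences thus depended on the scaling, and centring moved the medians less without that embryo. With all embryos centring also turned the calls among all tested genes to 61 higher and 300 lower, in place of 137 and 204. Without Ctrl_LNA 48 it gave 186 higher and 433 lower, in place of 245 and 409.

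The count tests on recovered reads gave a similar short list. With all embryos edgeR called Prim2 lower and 0 members higher (1.05% lower and 0.186% higher among all tested genes). Without Ctrl_LNA 48 edgeR called Prim2 and Cdc45 lower and 0 higher (1.61% and 0.54%). With all embryos DESeq2 called Prim2 lower and Pold3 higher (2.17% and 1.32%), and without Ctrl_LNA 48 it called Prim2, Cdc45 and Pole lower and Pold3 higher (2.58% and 1.71%). A rank sum permutation test on all embryos, which gives little weight to how far a single embryo lies from the rest, called Prim2, Cdc45 and Pole lower and 0 higher (2.29% and 1.81%).

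**Figure D2:**
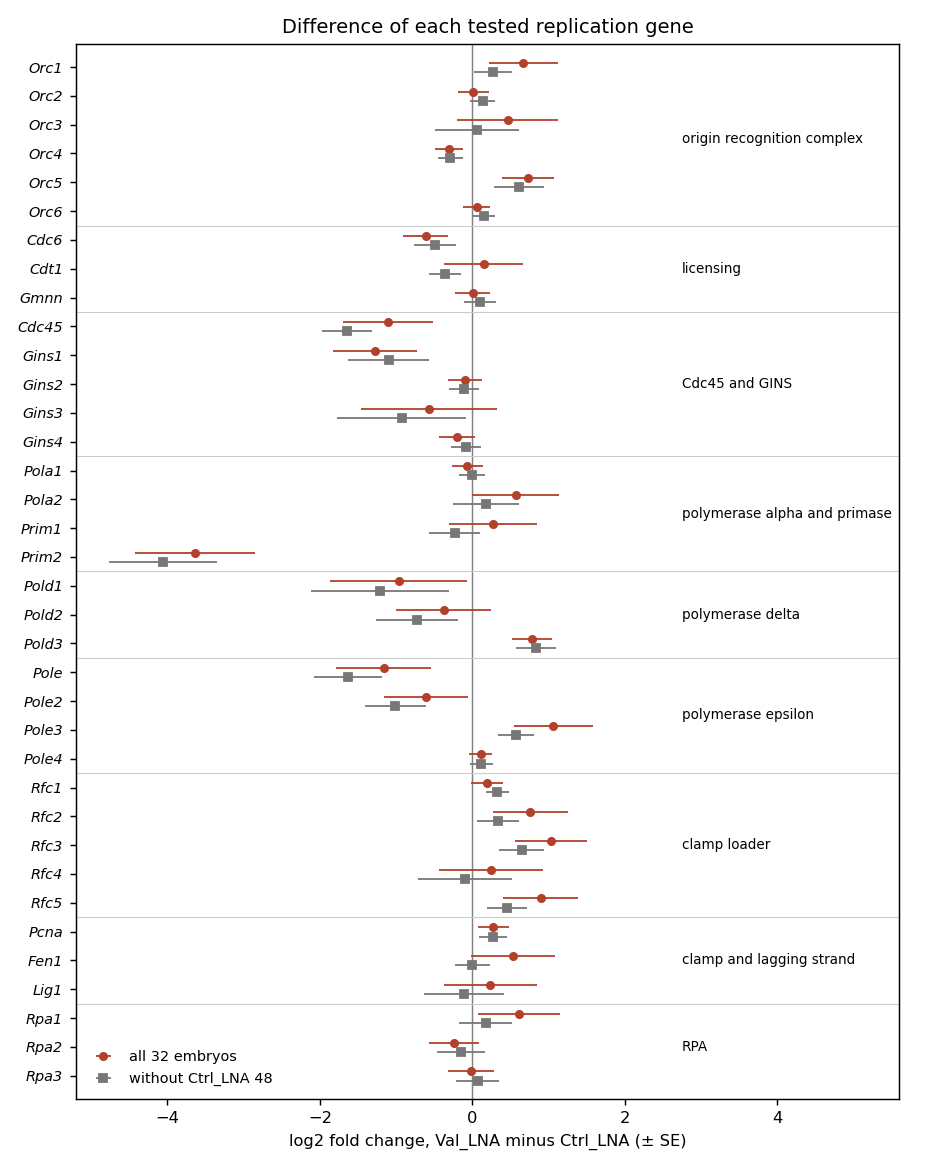
Log2 fold change (Val_LNA minus Ctrl_LNA, ± SE, limma) of the 36 tested replication genes, grouped by role, with all 32 embryos (circles) and without Ctrl_LNA 48 (squares). Prim2 lies at -3.64 and -4.06, Cdc45 at -1.11 and -1.65, Pole at -1.16 and -1.63 and Pold3 at 0.78 and 0.84, while most other genes lie within 1 log2 unit of 0.

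Prim2 encodes the large subunit of primase, the enzyme that makes the RNA part of every primer (ENSMUSG00000026134.11, chromosome 1, 33453810 to 33669795, minus strand). Its normalised count was 0 to 38.8 (median 9.37) in Val_LNA and 0.9 to 358 (median 133) in the 15 controls, with 0 in Ctrl_LNA 48. Reads of it were present in 11 of the 16 Val_LNA and in 15 of the 16 Ctrl_LNA embryos. Every Val_LNA embryo lay below the control median, and 12 of the 15 controls lay above the highest Val_LNA embryo, so the groups overlapped in 3 controls. The means were 11.7 ± 12.3 in Val_LNA and 158 ± 109 in the 15 controls (SD, n = 16 and 15), from 197 and 2929 recovered reads in all. Prim2 fell by 3.64 ± 0.79 on the log2 scale with all embryos (SE, limma, adjusted p = 0.00628) and by 4.06 ± 0.70 without Ctrl_LNA 48 (adjusted p = 0.000328). EdgeR gave -3.81 (adjusted p = 0.00321), and every fit that left out 1 of the 32 embryos kept the call, between -4.06 and -3.47.

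The other genes of the primase and polymerase alpha complex did not pass a test. Prim1, the catalytic primase subunit and the highest gene of this complex per kilobase, had 43.7 to 511 normalised counts (median 244) in Val_LNA and 64.1 to 671 (median 300.1) in the 15 controls. Pola1, the catalytic subunit of polymerase alpha, averaged 421 ± 131 in Val_LNA and 423 ± 129 in the 15 controls (SD, n = 16 and 15). Pola2, its accessory subunit, averaged 108 ± 70.7 and 105 ± 77.1 in the same groups. Prim2 was thus the 1 of 4 genes of the complex with a call, and its level per kilobase in controls (26.6) lay between those of Pola2 (12.6) and Pola1 (48).

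**Figure D3:**
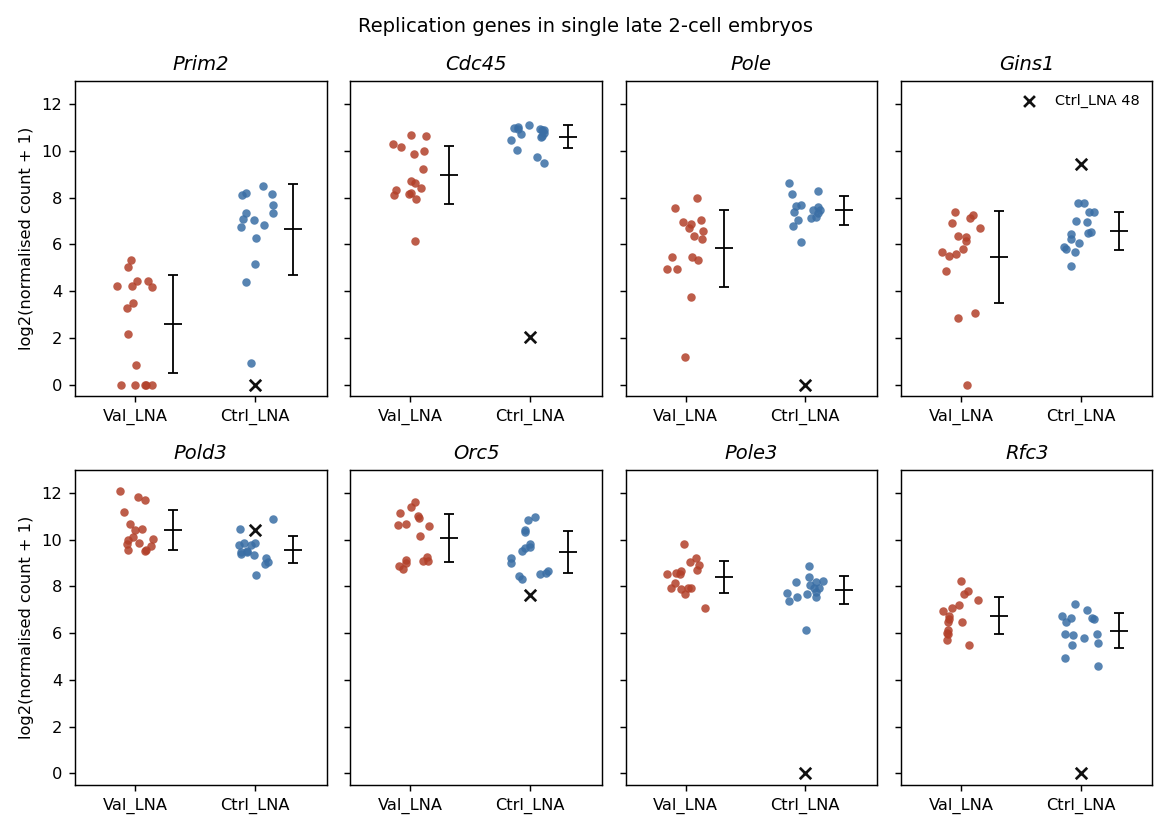
Log2(normalised count + 1) of 8 replication genes, 1 point per embryo, Val_LNA left and Ctrl_LNA right; the bar is the mean ± SD, without Ctrl_LNA 48, which is drawn as a cross. Prim2 is at or near 0 in several Val_LNA embryos, Cdc45 and Pole spread downwards in Val_LNA, Pold3 and Orc5 spread upwards, and the cross lies at 0 for Prim2, Pole, Pole3 and Rfc3.

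Cdc45 encodes the protein that joins the Mcm ring and GINS in the active helicase (ENSMUSG00000000028.15, chromosome 16, 18780447 to 18811987, minus strand, the promoter of which is printed above). Its normalised count was 70.5 to 1643 (median 409) in Val_LNA and 710.1 to 2246 (median 1729.6) in the 15 controls, with 3.15 in Ctrl_LNA 48. All 16 Val_LNA embryos lay below the control median, and 10 of the 16 lay below every 1 of the 15 controls. The means were 679 ± 513 in Val_LNA and 1651 ± 466 in the 15 controls (SD, n = 16 and 15). With all embryos the log2 fold change was -1.11 ± 0.59 (SE, limma, adjusted p = 0.375), which is no call, and the 1 control embryo at 3.15 is part of that spread. Without Ctrl_LNA 48 Cdc45 fell by 1.65 ± 0.32 (limma, adjusted p = 0.00138), and by 1.33 in edgeR (adjusted p = 0.0258). Cdc45 shares 5.96% of its exon bases with Ufd1 on the opposite strand, and reads carry no strand. Ufd1 averaged 75.5 normalised counts in Val_LNA and 153 in the 15 controls, with a log2 fold change of -1.18 without Ctrl_LNA 48 (limma, adjusted p = 0.133).

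All 4 GINS genes and Cdc45 had a negative log2 fold change with all embryos, without Ctrl_LNA 48 and after median centring. In the same order of fits, 5550, 7123 and 9496 of all 15559 tested genes were negative. Of the 5 only Cdc45 was called (without Ctrl_LNA 48 and after centring), and in the lower runs of library numbers 4 of the 5 were negative. The median over the 5 was -0.57 with all embryos and -0.92 without Ctrl_LNA 48, beside 0.26 and 0.07 over all tested genes. With the summed egg markers as a covariate and without Ctrl_LNA 48, the median over the 5 was -0.23, with 4 negative and 1 positive, beside -0.03 over all tested genes. Gins1 had 0 to 166 normalised counts (median 61.8) in Val_LNA and 32.4 to 220.1 (median 89.4) in the 15 controls, and 706 in Ctrl_LNA 48, the highest value of any embryo. Its log2 fold change was -1.28 ± 0.55 with all embryos (SE, limma, adjusted p = 0.271) and -1.10 ± 0.53 without Ctrl_LNA 48 (adjusted p = 0.287). Gins3 was the most uneven of the 4, at 1.25 to 684 in Val_LNA and 0 to 797 in the 15 controls. Gins4 averaged 422 ± 194 in Val_LNA and 431 ± 124 in these controls. Gins2 averaged 244 ± 66.9 in Val_LNA and 273 ± 112 in these controls (SD, n = 16 and 15), and shares 67.3% of its exon bases with Gse1 on the opposite strand, so its value is uncertain.

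The origin recognition genes held no call in either fit. Orc5, a subunit of the ORC ring, had 425 to 3163 normalised counts (median 1345) in Val_LNA and 319.6 to 2025 (median 738) in the 15 controls, with 197 in Ctrl_LNA 48. Its groups overlapped widely, with 4 Val_LNA embryos above all 15 controls, and its log2 fold change was 0.73 ± 0.34 (SE, limma, adjusted p = 0.318) with all embryos. Orc6, the highest ORC gene per kilobase, had 355 to 1092 (median 731) in Val_LNA and 381 to 882 (median 648) in the 15 controls, with 1742 in Ctrl_LNA 48. Orc1, an ATPase subunit of ORC, averaged 564 ± 220.0 in Val_LNA and 462 ± 180.2 in the 15 controls (SD, n = 16 and 15). Orc4 averaged 371 ± 117 and 451 ± 126, and Orc3 120.5 ± 74.5 and 127 ± 84.2, in the same order of groups. Orc2 averaged 969.9 ± 333 in Val_LNA and 859 ± 218 in the 15 controls, and shares 29.8% of its exon bases with Nif3l1 on the opposite strand.

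The loading factors were also without a call. Cdc6, the ATPase that brings the helicase to ORC, had 74.0 to 1309 normalised counts (median 491) in Val_LNA and 414 to 1538 (median 571) in the 15 controls, with 2260.2 in Ctrl_LNA 48. In Val_LNA 3 embryos lay below every control. Its log2 fold change was -0.61 ± 0.30 (SE, limma, adjusted p = 0.335) with all embryos and -0.50 ± 0.28 (adjusted p = 0.372) without Ctrl_LNA 48. Cdt1, which hands over the helicase, averaged 468 ± 155 in Val_LNA and 619 ± 249 in the 15 controls (SD, n = 16 and 15), and its value in Ctrl_LNA 48 was 1.05. Gmnn, its inhibitor, had 566 to 1938 (median 1500.3) in Val_LNA and 368 to 2374 (median 1349) in these controls, with 3613 in Ctrl_LNA 48.

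Polymerase delta held the only member with a call upwards in any fit. Pold3, the subunit that binds PCNA and links the parts of the enzyme (ENSMUSG00000030726.16, chromosome 7, 100082111 to 100121565, minus strand), had 742 to 4350.3 normalised counts (median 1086) in Val_LNA and 356 to 1876 (median 718) in the 15 controls, with 1369.6 in Ctrl_LNA 48. All 16 Val_LNA embryos lay above the control median and 4 lay above all 15 controls. The log2 fold change was 0.78 ± 0.26 with all embryos (SE, limma, adjusted p = 0.117) and 0.84 ± 0.26 without Ctrl_LNA 48 (adjusted p = 0.0555). EdgeR gave 0.78 with all embryos (adjusted p = 0.119), and DESeq2 gave 0.92 (adjusted p = 0.0274) and, without Ctrl_LNA 48, 0.90 (adjusted p = 0.0115). In limma it passed only after centring without Ctrl_LNA 48 (0.77, adjusted p = 0.0457), and centring of all embryos gave 0.33 (adjusted p = 0.791). The catalytic subunit gene Pold1 was close to the floor, with 0 to 76.4 (median 8.31) in Val_LNA and 0 to 88.8 (median 30.6) in the 15 controls, and Pold2 averaged 94.0 ± 60.3 and 111 ± 58.7 in these groups.

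The 4 genes of polymerase epsilon did not move together. Pole, the catalytic subunit (ENSMUSG00000007080.14, chromosome 5, 110286306 to 110337474, plus strand), had 1.25 to 252 normalised counts (median 77.9) in Val_LNA and 67.6 to 393 (median 176) in the 15 controls, with 0 in Ctrl_LNA 48. In Val_LNA 14 of 16 embryos lay below the control median and 7 lay below every 1 of the 15 controls. Its log2 fold change was -1.16 ± 0.62 with all embryos (SE, limma, adjusted p = 0.375), and without Ctrl_LNA 48 Pole fell by 1.63 ± 0.44 (adjusted p = 0.0268), although edgeR gave -1.21 without a call there (adjusted p = 0.119). Pole2, which ties the catalytic subunit to the helicase, had 3.64 to 143 (median 48.2) in Val_LNA and 54.0 to 159.8 (median 89.1) in the 15 controls, and 9 Val_LNA embryos lay below all of these; it was not called (limma without Ctrl_LNA 48, -1.01, adjusted p = 0.159). Pole3, a histone-fold subunit, had 135 to 903 (median 366) in Val_LNA and 70.1 to 464 (median 243) in the 15 controls, with 0 in Ctrl_LNA 48. Its log2 fold change was 1.06 ± 0.52 with all embryos (SE, limma, adjusted p = 0.335) and 0.57 ± 0.24 without Ctrl_LNA 48 (adjusted p = 0.182). Its partner Pole4 had 866 to 2423 (median 1359) in Val_LNA and 697 to 1765 (median 1248) in the 15 controls.

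The 5 clamp loader genes held no call in limma. With all embryos their log2 fold changes were positive in limma, as were those of 10009 of all 15559 tested genes, while 2 of the 5 were negative in edgeR and 1 in DESeq2. In limma 1 was negative without Ctrl_LNA 48 and 2 after median centring. Rfc3 had 44.2 to 300.4 normalised counts (median 102) in Val_LNA and 23.1 to 153 (median 61.4) in the 15 controls, with 0 in Ctrl_LNA 48. Its log2 fold change was 1.03 ± 0.47 with all embryos (SE, limma, adjusted p = 0.303) and 0.65 ± 0.30 without Ctrl_LNA 48 (adjusted p = 0.253). Rfc5, the highest of the 5 per kilobase, had 193 to 1121 (median 394) in Val_LNA and 149 to 814 (median 235) in the 15 controls. Rfc1, the large subunit, had the lowest spread of all 37 genes in Val_LNA, with a coefficient of variation of 22% there and 29.1% in the 15 controls. Rfc2 averaged 173 ± 101 in Val_LNA and 122 ± 45.8 in these controls (SD, n = 16 and 15). Rfc4 averaged 56.8 ± 32.3 and 64.6 ± 75.2 in the same groups, and 12.7% of its exon bases are shared with the far higher Eif4a2 on the opposite strand (597 and 655 normalised counts).

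Pcna, the clamp, had 366 to 922 normalised counts (median 507) in Val_LNA and 237 to 1032 (median 451) in the 15 controls, and none of the 3 genes of the clamp and of lagging strand joining was called. Fen1, the nuclease that trims primer flaps, averaged 387 ± 154 in Val_LNA and 381 ± 132 in the 15 controls (SD, n = 16 and 15). It shares 78.8% of its exon bases with the antisense gene Gm10143, so its value is uncertain. Lig1, the ligase that seals the fragments, averaged 68.1 ± 65.2 in Val_LNA and 63.9 ± 43.7 in these controls. Of the RPA genes, which coat single-stranded DNA, Rpa2 was highest per kilobase, with 133 to 2211 (median 839) in Val_LNA, 168 to 1907 (median 766) in the 15 controls and 2354 in Ctrl_LNA 48. Rpa1 averaged 165 ± 84.4 and 165 ± 102, and Rpa3 89.9 ± 52.0 and 75.9 ± 22.7, in Val_LNA and in these controls. The RPA genes held no call.

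**Figure D4:**
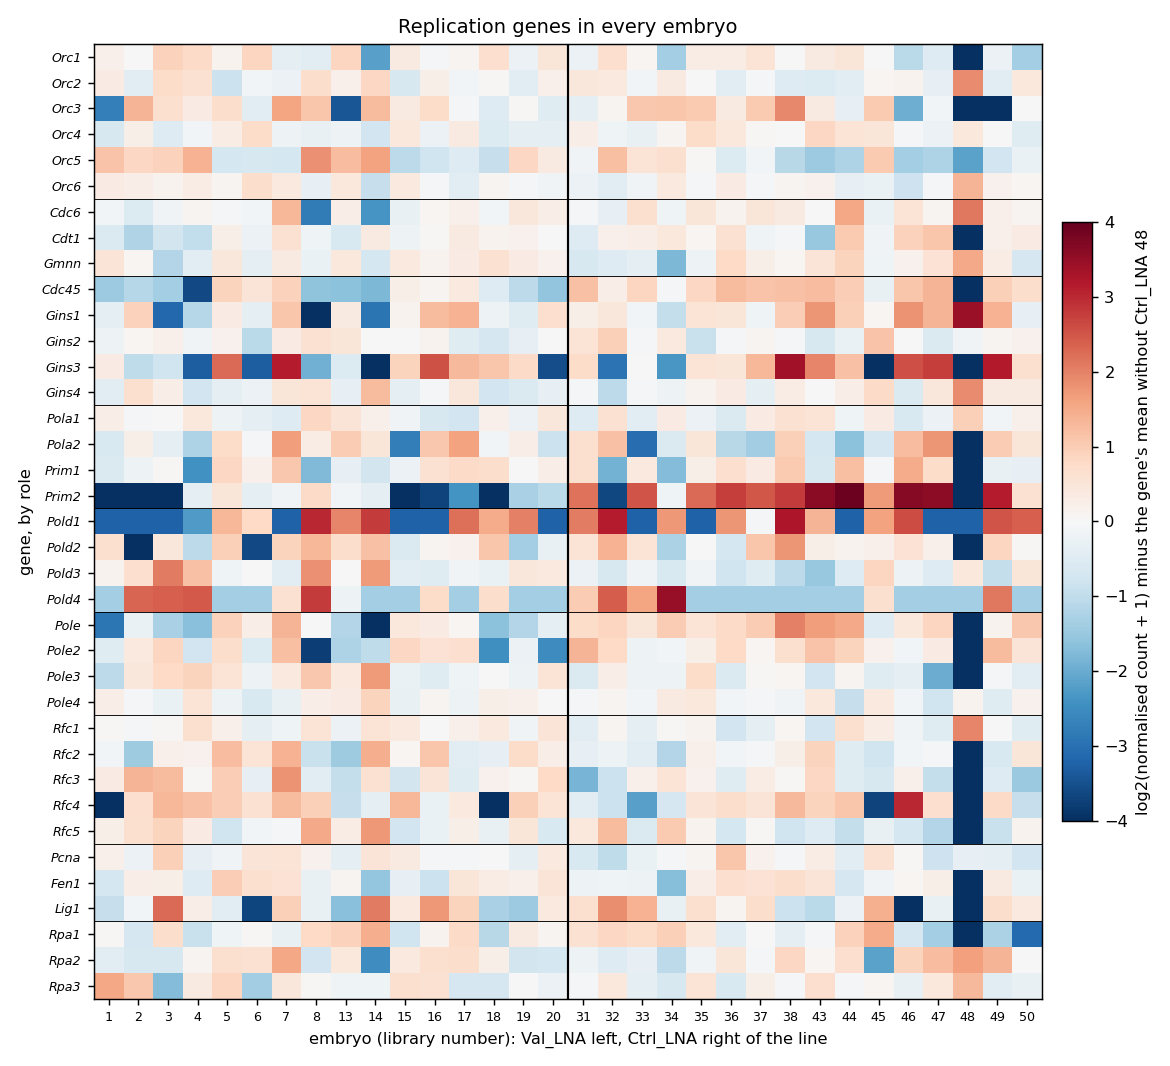
Each replication gene (rows, by role) in each embryo (columns, Val_LNA 1 to 20 left and Ctrl_LNA 31 to 50 right), as log2(normalised count + 1) minus the gene's mean without Ctrl_LNA 48; colours are cut off at -4 and 4. The Prim2 row is mostly blue in Val_LNA and red in Ctrl_LNA. Cdc45 is dark in part of the Val_LNA embryos and in Ctrl_LNA 48, and the column of Ctrl_LNA 48 holds most of the extreme colours.

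Cdc45 did not fall evenly across the Val_LNA embryos, and it was lower in the set of embryos with higher Orc5. In Val_LNA the Orc5 values left a gap of 0.89 on the log2 scale, against 0.45 for the next widest gap, and 0.49 for the widest in the 15 controls. Below the gap lay 7 embryos with 425 to 612 normalised counts of Orc5, and these had 605 to 1643 of Cdc45 and 742 to 1007 of Pold3. Above it lay 9 embryos with 1137 to 3163 of Orc5, and these had 70.5 to 421 of Cdc45 and 1045 to 4350.3 of Pold3. Prim2 did not follow this division, at 0 to 31.9 in the 7 embryos and 0 to 38.8 in the 9. Of the 15 controls, 4 had Orc5 values as high as in the 9 (1280 to 2025), with 710.1 to 1582 of Cdc45. The division was seen in the values and is a description with no test between the sets. The summed egg markers were 5693 to 12615 in the 7 embryos and 12024 to 31741 in the 9, and the summed 2-cell markers 3938 to 7533 and 5889 to 26136. Both sets held embryos of both runs of library numbers (3 lower and 4 upper below the gap, 5 and 4 above).

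Inside the sets no relation passed adjustment over the 32 values computed there (8 pairs, 2 sets, r and rho), and no r or rho is given for all 16 Val_LNA embryos together because of the gap. For Orc5 and Cdc45, Pearson's r across the 7 embryos was 0.53 (exact permutation p = 0.219, adjusted p = 0.292) and Spearman's rho 0.57 (exact permutation p = 0.2, adjusted p = 0.278). Across the 9 embryos r was -0.37 (exact permutation p = 0.332, adjusted p = 0.394) and rho -0.72 (exact permutation p = 0.0369, adjusted p = 0.164). In the 15 controls, which were not divided, r was -0.80 (permutation p = 0.00026, adjusted p = 0.00332 over the 144 relations computed) and rho -0.72 (permutation p = 0.00289, adjusted p = 0.0198). Without the 2 controls farthest from the Orc5 median r was -0.67, and rho was -0.93 and -0.79 in the lower and upper runs. Orc5 and Prim2 in the same 15 controls had r = -0.77 (permutation p = 9e-05, adjusted p = 0.00247) and rho = -0.89 (permutation p = 1e-05, the smallest these resamples can give, adjusted p = 0.00072), with r = -0.77 without the 2 farthest controls and rho of -0.79 and -0.82 in the runs. Inside the Val_LNA sets Orc5 and Prim2 had positive values instead, with rho of 0.63 across the 7 embryos (exact permutation p = 0.144, adjusted p = 0.242) and 0.66 across the 9 (exact permutation p = 0.0632, adjusted p = 0.164). There r was 0.67 and 0.49 (exact permutation p = 0.113 and 0.184, adjusted p = 0.226 and 0.268), and none of these passed. Of the 36 pairs among the 9 genes with full test values, rho passed for 7 in all 16 Val_LNA embryos, for 5 in the 15 controls and for 1, Orc5 with Cdc45, in both. The Val_LNA count pools the 2 sets, so a pass there can restate the gap. Orc5 with Cdc45 did not pass inside either set, but the sets were cut on Orc5, which narrows its range in each. The lack of a pass there therefore does not show that a relation is absent. In the lower and upper runs of Val_LNA, each with embryos of both sets, rho of Orc5 with Cdc45 was -0.95 and -0.81. Both genes of each pair come from the same library, and the rho of reads per embryo in the 15 controls was 0.0036 with Orc5, -0.35 with Cdc45 and -0.05 with Prim2 (permutation p = 0.995, 0.207 and 0.862).

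**Figure D5:**
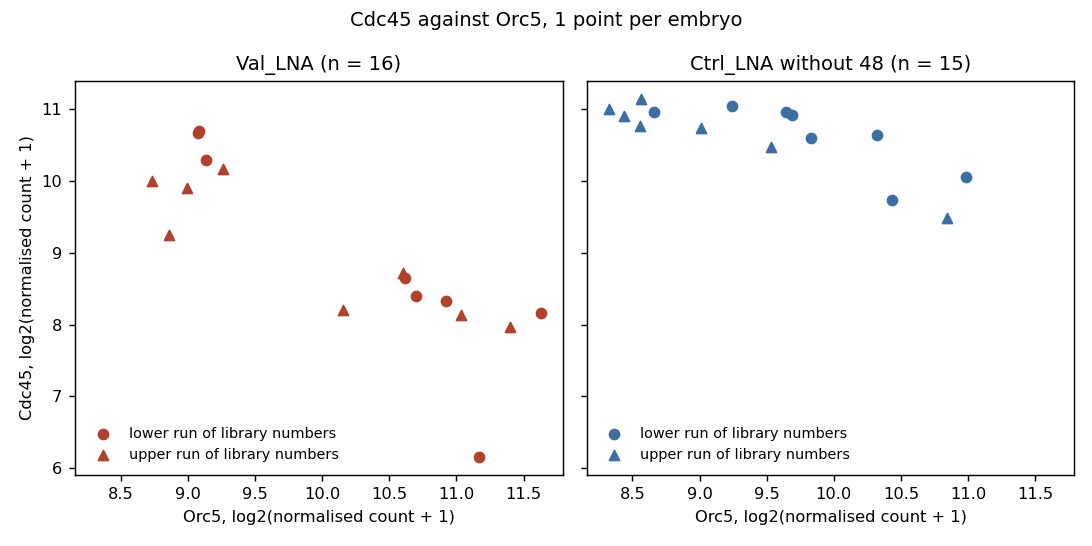
Cdc45 against Orc5, both as log2(normalised count + 1), 1 point per embryo, Val_LNA left (n = 16) and Ctrl_LNA without embryo 48 right (n = 15); circles are the lower and triangles the upper run of library numbers. At their widest gap in Orc5 the Val_LNA embryos divide into 7 at upper left and 9 at lower right, a description that was not tested. The controls run from high to lower Cdc45 as Orc5 rises.

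The summed egg and 2-cell markers moved with part of these genes. Of the 9 genes with full test values, rho with the egg sum passed for 5 in all 16 Val_LNA embryos (Orc5, Cdc45, Gins1, Pold3 and Pole) and for 3 in the 15 controls (Orc5, Gins1 and Prim2). With the 2-cell sum Spearman's correlation passed for 4 in Val_LNA (Orc5, Cdc6, Cdc45 and Pold3) and for the same 3 in the controls. The Val_LNA counts pool the 2 sets divided by Orc5, so they can restate the gap between these sets. In the 15 controls the egg sum had r = 0.82 with Orc5 (permutation p = 0.0003, adjusted p = 0.00332) and rho = 0.74 (permutation p = 0.00238, adjusted p = 0.018), with rho of 0.52 and 0.54 in the runs and r = 0.83 without the 2 farthest controls. The 2-cell sum had r = 0.72 with Orc5 in these controls (permutation p = 0.00208, adjusted p = 0.0125) and rho = 0.69 (permutation p = 0.00601, adjusted p = 0.0333), with rho of 0.69 and 0.54 in the runs and r = 0.63 without the 2 farthest. For Orc5 nothing passed adjustment inside the Val_LNA sets. Across the 7 embryos the egg sum had r = -0.40 and rho = -0.39 (exact permutation p = 0.376 and 0.396). The 2-cell sum had r = -0.94 and rho = -0.93 there (exact permutation p = 0.00179 and 0.00675, adjusted p = 0.0571 and 0.108). Across the 9 the egg sum had r = 0.69 and rho = 0.72 (exact permutation p = 0.036 and 0.0369), and the 2-cell sum r = 0.57 and rho = 0.50 (exact permutation p = 0.109 and 0.178).

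With Cdc45 the egg sum had r = -0.78 in the 15 controls (permutation p = 0.00058, adjusted p = 0.00464), while rho = -0.62 did not pass (permutation p = 0.0165, adjusted p = 0.0688). Without the 2 farthest controls that r was -0.49, so its size in the controls rests on these embryos, and rho was -0.55 and -0.61 in the runs. The egg sum and Cdc45 also had negative values inside the Val_LNA sets, with rho of -0.86 across the 7 embryos (exact permutation p = 0.0238, adjusted p = 0.164) and -0.55 across the 9 (exact permutation p = 0.133, adjusted p = 0.242). There r was -0.86 and -0.22 (exact permutation p = 0.0165 and 0.47, adjusted p = 0.164 and 0.501), and none of these passed. With Prim2 the egg sum had rho = -0.70 in the controls (permutation p = 0.00495, adjusted p = 0.0285) and r = -0.50 (permutation p = 0.0508, adjusted p = 0.139), and the 2-cell sum had r = -0.79 (permutation p = 0.00057, adjusted p = 0.00464) and rho = -0.70 (permutation p = 0.00488, adjusted p = 0.0285). Without the 2 farthest controls the r of Prim2 with the 2-cell sum was -0.45, so it rests on these embryos, and rho was -0.55 and -0.50 in the runs. Inside the Val_LNA sets the egg sum had r = -0.73 and -0.70 with Pole and -0.17 and 0.63 with Pold3, across the 7 and the 9 embryos (exact permutation p = 0.0651, 0.0613, 0.725 and 0.0532). In the same order rho was -0.71, -0.38, -0.14 and 0.50 (exact permutation p = 0.0881, 0.3125, 0.783 and 0.178), and none of these passed adjustment.

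With the log2 egg sum as a covariate and without Ctrl_LNA 48, Cdc45 fell by 1.15 (limma, adjusted p = 0.0026) and the Prim2 difference was -3.72 on the log2 scale (adjusted p = 0.00154). Pole then had -1.03 (adjusted p = 0.114) and Orc5 0.05 (adjusted p = 0.947). The egg sum was measured after the injection, with a median of 13329 in Val_LNA and 9588 in Ctrl_LNA without embryo 48. The covariate fit therefore cannot separate egg RNA from the effect of the injection. Whether egg RNA has a part in the differences of Pole and Orc5 was not tested.

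The library numbers form 2 runs in each group, which the labels do not call batches, and each run was compared alone. In the lower runs (Val_LNA 1 to 8 and Ctrl_LNA 31 to 38) limma called 0 members, against 0.533% of all tested genes called lower and 0.623% called higher, so 0 of 36 is near the background. Prim2 was at -3.07 there (adjusted p = 0.23), Cdc45 at -1.69 (adjusted p = 0.135), Pole at -1.38 (adjusted p = 0.26) and Pold3 at 1.16 (adjusted p = 0.114). In the upper runs (Val_LNA 13 to 20 and Ctrl_LNA 43 to 50) limma called 0 members, against 0.212% of all tested genes called lower and 0.0129% called higher, with Prim2 at -4.22 (adjusted p = 0.191) and Cdc45 at -0.53 (adjusted p = 0.828). Without Ctrl_LNA 48 the upper runs gave calls for Prim2 (-5.15, adjusted p = 0.00367) and Cdc45 (-1.60, adjusted p = 0.0465), against 0.797% of all tested genes called lower and 0.045% called higher, with Pole at -1.86 (adjusted p = 0.267) and Pold3 at 0.50 (adjusted p = 0.565). The test of a difference between the runs in the Val_LNA effect called 0 members in limma, and 0 of all 15559 tested genes. At an unadjusted p under 0.05 it had 0 members, against 808 of all tested genes, so it does not show that the runs agreed for the members.

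Of 65 tested genes in 6 lists around this machinery, limma with all embryos called 3 lower and 1 higher, beside the 1.31% lower and 0.881% higher among all tested genes. Of the 6 Mcm genes, all tested, only Mcm6, a subunit of the helicase ring, passed, with 216 ± 228 normalised counts in Val_LNA and 1391 ± 363 in the 15 controls (SD, n = 16 and 15; limma with all embryos, log2 fold change -3.38, adjusted p = 1.53e-06). Of 20 genes of origin firing and its control, Ccne1, the cyclin that drives entry into S phase, fell by 1.28 (limma, adjusted p = 0.0183) and Rif1, which holds late origins back, rose by 1.17 (limma, adjusted p = 0.0084), and 18 did not pass. Ccne1 averaged 357 ± 274 in Val_LNA and 725 ± 375 in the 15 controls (SD, n = 16 and 15), with 2855 in Ctrl_LNA 48. It was called in limma and not in edgeR without that embryo (adjusted p = 0.0133 and 0.0614), and limma did not call it after centring of all embryos (adjusted p = 0.108), in the lower runs (adjusted p = 0.437) or in the upper runs with and without Ctrl_LNA 48 (adjusted p = 0.163 and 0.053). Rif1 averaged 1875 ± 324 in Val_LNA and 1013 ± 767 in the 15 controls, and all 16 Val_LNA embryos lay above the control median. EdgeR did not call it (0.73, adjusted p = 0.252), nor did limma after centring of all embryos (0.72, adjusted p = 0.546). Of the 20 genes, 1 was called higher in DESeq2 with all embryos and in limma in the lower runs. Limma without Ctrl_LNA 48 also called 1 higher, with and without centring and with the egg covariate. In DESeq2 and edgeR without that embryo and in the upper runs 0 were called higher. Of 5 genes of chromatin assembly at forks, the histone chaperone gene Asf1b fell by 2.52 (limma, adjusted p = 0.00141), and 4 did not pass. None of 16 fork and lagging strand partners, 10 genes of nucleotide supply and 8 of translesion synthesis was called in limma with all embryos. Without Ctrl_LNA 48 limma added Clspn, which links the fork to the checkpoint (-0.88, adjusted p = 0.0364), and Rbbp4 of the chromatin assembly factor (0.90, adjusted p = 0.0348). That fit called 2.63% of all tested genes lower and 1.57% higher. Without that embryo edgeR and DESeq2 called 0 fork partners lower and 0 chromatin assembly genes higher. In limma without it, 0 fork partners were lower with the egg covariate, and 0 chromatin assembly genes were higher after centring.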

How the data were processed

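Polyadenylated RNA of single embryos was sequenced after template switching, 20 PCR cycles and tagmentation, per the labels' protocols, without molecular identifiers or strand marking, so any precision from counts covers counting error only. Bowtie2, STAR, SAMtools, DESeq2 and mm10 are named in the submitters' processing notes, with roles and versions not given in the sources used here. Values are a signal, namely counts that the authors had divided by the size factor of the library, per the file headers. The size factors themselves were deposited as a ratio per library. Value times size factor gave whole reads (within 0.0086) for 100% of 1095136 values. Coordinates are from GENCODE M21 (GRCm38), which matched 34179 of 34223 identifiers.

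The test was limma 3.58.1 (R 4.3.3, trend and robust) on log2(normalised count + 1), Val_LNA minus Ctrl_LNA, over 15559 genes with at least 10 in at least 8 of 32 embryos, with Benjamini-Hochberg adjustment over all of them and calls at an adjusted p under 0.05. This scale understates changes of low genes. On recovered reads, edgeR 4.0.16 (quasi-likelihood), DESeq2 1.42.0 and limma-voom were alternatives, beside a rank sum permutation test (100000 resamples, two-sided), pseudocounts of 0.5 and 5, other filters, median centring, array weights, covariates, runs of library numbers and leaving out each embryo. Only limma and edgeR were tested on simulated counts. These were drawn with means and spread estimated without Ctrl_LNA 48, so they held no embryo like it. Correlations used log2 values, two-sided permutation tests and adjustment over all 144 relations. Replicate numbers are not shared between groups. The 37 genes, the other lists and the rule for named genes were chosen with earlier results of these data known. The rule gave full values to genes called in limma with or without Ctrl_LNA 48 or with an unadjusted p under 0.05, and levels to the highest gene per exon kilobase of each role. The Orc5 division, the egg covariate and centring without Ctrl_LNA 48 were added after the values were seen. Python 3.11.15, numpy 2.4.6, scipy 1.17.1, pandas 2.3.3 and matplotlib 3.10.9 were used.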

Additional observations from a re-analysis of the deposited data

How the results depend on the processing

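The number of replication genes called lower in Val_LNA was 1 with all embryos and moved to 2 with median centring, with edgeR without Ctrl_LNA 48, in the upper runs without Ctrl_LNA 48 and with the egg marker covariate. It was 3 with array weights, without Ctrl_LNA 48 in limma or DESeq2, with median centring without Ctrl_LNA 48 and in the rank sum test, and 0 in each run alone. Leaving out each embryo in turn gave 1 to 3 lower, with 3 when Ctrl_LNA 48 was left out and 1 otherwise, and 0 higher each time. The number called higher was 0, and 1 (Pold3) in DESeq2 with and without Ctrl_LNA 48 and with median centring without that embryo. Prim2 kept its direction in every alternative and its call in all but the 2 fits of a single run with 8 embryos a group. Cdc45 and Pole kept their direction in all alternatives run, and gained a call in 8 and 4 of the fits. Without Ctrl_LNA 48 the log2 fold change of Pole3 was 0.57 in place of 1.06, and that of Rfc3 0.65 in place of 1.03. The cause of these moves was not tested, other than that each run holds fewer embryos. No paired analysis was possible because the groups share no replicate numbers. Levels near 0, such as those of Pold4 and Pold1, are at the limit of this depth.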

Other observations

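The nearest tested genes beside the 9 replication genes with full test values were not called in limma with all embryos or without Ctrl_LNA 48. Beside Cdc45, Cldn5 stood at -0.42 on the log2 scale (limma, adjusted p = 0.849) with all embryos and Ufd1, named above, at -0.75 (adjusted p = 0.553). Beside Prim2, Rab23 stood at 0.45 (limma, adjusted p = 0.654) and 3 other neighbouring gene models between -0.04 and 0.28. Nif3l1, which overlaps Orc2, was called higher in limma without Ctrl_LNA 48 (0.58, adjusted p = 0.0464), with 312 normalised counts in Val_LNA and 204 in the 15 other controls, and was not called with all embryos (0.67, adjusted p = 0.116).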
